A study of Mus musculus with 14 samples.

Results

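The lymphoid priming genes are 8 mouse genes that mark the first steps of multipotent blood progenitors toward the lymphoid lineages: Flt3, Dntt, Cd27, Il7r, Rag1, Rag2, Satb1 and Notch1. They were taken as a given list, by gene symbol in the LSK and MyePro count files (38926 gene entries) and by Ensembl gene ID in the LT-HSC count files (39179 gene IDs), and all 8 were found once in each. The study asked how loss of Dpy30 changes adult blood stem and progenitor cells. DPY30 belongs to the core of the SET1/MLL enzymes that place methyl groups on histone H3 lysine 4.

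RNA was sequenced from 3 sorted populations of mixed bone marrow chimeras. KO donor cells were Mx1-Cre; Dpy30F/-, with 1 floxed and 1 deleted allele, and control donor cells were Mx1-Cre; Dpy30F/+, with 1 floxed and 1 wild-type allele, so both genotypes carried the Cre transgene and a floxed allele. Donor marrow (CD45.2+) was transplanted together with competitor marrow (CD45.1+) into irradiated CD45.1+ recipients. All recipients received 4 injections of pIpC at 7.5 µg/g, starting 7 weeks after transplantation, and marrow was taken 2 weeks after the last injection. pIpC is a double-stranded RNA mimic that induces interferon and thereby the Mx1 promoter, which is active in many cell types and not in blood cells alone. The groups were KO LSK, control LSK, KO MyePro and control MyePro, with 1 library each from a pool of 2 to 3 mice, and KO LT-HSC and control LT-HSC, with 2 libraries each from pools of 7 to 9 mice in transplants 1 and 2. LSK is the lineage-negative fraction positive for Sca-1 and Kit, which holds stem cells and multipotent progenitors, LT-HSC are long-term hematopoietic stem cells, and the gate used for MyePro is not stated. The age and sex of the mice are not given in the labels.

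Within the LSK fraction a subset of multipotent progenitors switches on lymphoid genes at a low level before it commits. Its surface carries FLT3, the receptor tyrosine kinase for FLT3 ligand, and CD27, a receptor of the tumour necrosis factor receptor family. IL-7 receptor alpha (Il7r) then carries the survival signal of early lymphoid cells, NOTCH1 is the receptor that directs progenitors to the T lineage, and SATB1 is a chromatin organizer that promotes lymphoid genes in early progenitors. RAG1 and RAG2 cut antigen receptor genes during V(D)J recombination, and terminal transferase (Dntt) adds nucleotides at the cut ends.

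The promoters of Flt3, Dntt, Cd27 and Il7r are shown because the first 3 had the lowest ratios of KO LSK to control LSK among the members above the expression minimum, and Il7r stood on the other side. Each runs from 250 bases before to 50 bases after an annotated start, 5′ to 3′ on the gene's strand, from RefSeq (GRCm38.p6). Capitals mark E boxes (CANNTG, the motif bound by E proteins, searched on both strands, where it reads the same) and the RUNX motif (TGTGGT, searched on both strands).
Flt3, chr5:147400440-147400739, minus strand: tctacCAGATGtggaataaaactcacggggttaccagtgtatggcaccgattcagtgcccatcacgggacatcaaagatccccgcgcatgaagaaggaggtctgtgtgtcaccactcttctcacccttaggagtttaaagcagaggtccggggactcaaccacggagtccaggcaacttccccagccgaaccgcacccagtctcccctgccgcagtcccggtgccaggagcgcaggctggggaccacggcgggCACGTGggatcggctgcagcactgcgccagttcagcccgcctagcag
Dntt, chr19:41029025-41029324, plus strand: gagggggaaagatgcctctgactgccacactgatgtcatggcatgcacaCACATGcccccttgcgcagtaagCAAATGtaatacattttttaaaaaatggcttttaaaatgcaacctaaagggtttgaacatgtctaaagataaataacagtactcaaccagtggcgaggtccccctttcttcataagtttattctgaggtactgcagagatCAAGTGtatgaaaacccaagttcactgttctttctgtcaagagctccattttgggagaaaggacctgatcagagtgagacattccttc
Cd27, chr6:125236978-125237277, minus strand: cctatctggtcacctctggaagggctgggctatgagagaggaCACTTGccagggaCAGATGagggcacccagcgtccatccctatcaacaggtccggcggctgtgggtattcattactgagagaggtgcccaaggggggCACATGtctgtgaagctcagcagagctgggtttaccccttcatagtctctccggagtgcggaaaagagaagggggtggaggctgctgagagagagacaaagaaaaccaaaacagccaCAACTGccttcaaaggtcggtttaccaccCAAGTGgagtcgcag
Il7r, chr15:9529827-9530126, minus strand: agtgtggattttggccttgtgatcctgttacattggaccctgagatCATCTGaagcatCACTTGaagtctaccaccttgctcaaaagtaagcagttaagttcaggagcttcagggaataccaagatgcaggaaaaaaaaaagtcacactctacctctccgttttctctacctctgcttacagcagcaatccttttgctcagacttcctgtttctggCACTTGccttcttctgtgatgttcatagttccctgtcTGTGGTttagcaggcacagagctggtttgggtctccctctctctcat

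An E box was present in 7 of the 8 member promoters, and in 72.3% of 32851 promoters of the same length. The promoter of Cd27 held 5 matches, that of Rag1 held 4, those of Dntt and Il7r held 3 each, those of Flt3 and Rag2 held 2 each, the first of the 5 listed Satb1 promoters held 1 and that of Notch1 held 0. The RUNX motif was present in those of Il7r (1 match) and Rag1 (2 matches, 1 of them overlapping an E box), and in 16.8% of all promoters. The promoters also differed in CpG content: Notch1 had 23 CpG dinucleotides and Flt3 had 18, while Il7r had 1, Dntt had 2 and Rag1 and Rag2 had 3 each, against a median of 7 over all promoters. These are matches of letters and not measured binding sites.

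Values are given in CPM, counts per 1000000 gene counts after TMM scaling between libraries, a method that equalises the typical gene. LSK and MyePro libraries were scaled together and LT-HSC libraries apart. Transcript lengths were not used, so levels are compared between libraries and not between genes. Gene counts ran from 6130320 (KO LSK) to 20820762 (control MyePro) and, in LT-HSC, from 38060087 to 85499797. Dpy30 itself stood at 42.3 CPM in KO LSK against 78.0 CPM in control LSK, and at 51.8 CPM in KO MyePro against 114 CPM in control MyePro. In LT-HSC it stood at 14.1 and 4.67 CPM in the libraries labelled KO from transplants 1 and 2 and at 12.9 and 8.43 CPM in the controls, so that the library labelled KO from transplant 1 was not lower, and LT-HSC directions below rest on the labels. Ly6a, which encodes the gate marker Sca-1, stood at 62.1 CPM in KO LSK and 31.5 CPM in control LSK, and at 11.5 CPM in KO MyePro and 4.77 CPM in control MyePro. The LT-HSC pools also differed in sex-linked genes. Y-linked Kdm5d had 0 counts in both libraries labelled KO against 29.8 and 19.2 CPM in the controls. The 4 LSK and MyePro libraries held between 19.8 and 29.0 CPM of it. X-linked Xist stood at 2165 and 1504 CPM in the LT-HSC libraries labelled KO and at 239 and 150 CPM in the controls. These differences cannot be told apart from genotype in any LT-HSC comparison below.

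KO LSK held less RNA of the surface receptors Flt3 and Cd27, of Dntt and of Satb1 than control LSK, and slightly less of Notch1, while Il7r was on the higher side. With 1 library per genotype there is no test across animals, and the 95% intervals below cover counting error alone. In bulk RNA, fewer cells of a type and less RNA per cell cannot be told apart. A difference was counted where it reached 2-fold in a gene averaging 5 CPM or more in the 2 libraries. By that rule 4 of the 8 members were lower in KO LSK (Flt3, Dntt, Cd27 and Satb1) and 0 higher, against 5.39% of all 10311 genes lower and 4.98% higher. The 5 members that reached the mean were above 5 CPM in each of the 2 LSK libraries, with a median log2 ratio of -1.77 against -0.04 over all genes. The other 3, Il7r, Rag1 and Rag2, were under it.

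Flt3 (chromosome 5, 147330741 to 147400489, GRCm38.p6) stood at 35.8 CPM in KO LSK and 123 CPM in control LSK, which makes 29.2% of control (log2 ratio -1.77, interval -1.98 to -1.58). Cd27 (chromosome 6, 125232620 to 125237136) stood at 21.3 CPM in KO LSK and 159 CPM in control LSK, which makes 13.4% of control (log2 ratio -2.89, interval -3.15 to -2.65). Both receptor genes were thus far below the control library, Cd27 further than Flt3, with intervals that do not meet. Cd27 RNA was also counted in control MyePro (59.6 CPM) and in the LT-HSC controls (57.4 and 42.1 CPM). Its level is therefore not a measure of the lymphoid-primed subset alone.

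Dntt (chromosome 19, 41029275 to 41059525) had 38 counts in KO LSK and 839 in control LSK, or 5.75 and 57.0 CPM, which makes 10.1% of control (log2 ratio -3.28, interval -3.82 to -2.84). This was the lowest ratio among the 5 members above the expression minimum. Its partners in V(D)J recombination were barely counted: Rag1 (chromosome 2, 101638252 to 101649532) had 0 counts in KO LSK and 4 in control LSK, and Rag2 (chromosome 2, 101624712 to 101632528) had 6 counts in KO LSK and 18 in control LSK, 0.907 and 1.22 CPM. A count of 0 in KO LSK allows up to 0.454 CPM (3 counts), which is above the 0.272 CPM of Rag1 in control LSK, so a difference in Rag1 was not detectable at this depth. The interval for Rag2 (-2.05 to 0.96 on the log2 scale) includes 0.

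Satb1 (chromosome 17, 51736187 to 51833290) stood at 19.2 CPM in KO LSK and 62.0 CPM in control LSK, a log2 ratio of -1.68 (interval -1.97 to -1.42). Notch1 (chromosome 2, 26457902 to 26503822) stood at 20.7 CPM in KO LSK and 34.0 CPM in control LSK, a log2 ratio of -0.71 (interval -1.0 to -0.44), so it was lower by less than 2-fold. Il7r (chromosome 15, 9506159 to 9529941) went the other way, with 33 counts in KO LSK and 34 in the deeper control LSK library, or 4.99 and 2.31 CPM (log2 ratio 1.06, interval 0.37 to 1.85). Its mean of 3.65 CPM kept it out of the count above. Its ratio came to 0.76, under 2-fold, when the LSK and MyePro libraries were thinned to the depth of KO LSK. Summed over all 8 members, KO LSK held 109 CPM and control LSK 438 CPM.

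**Figure D1:**
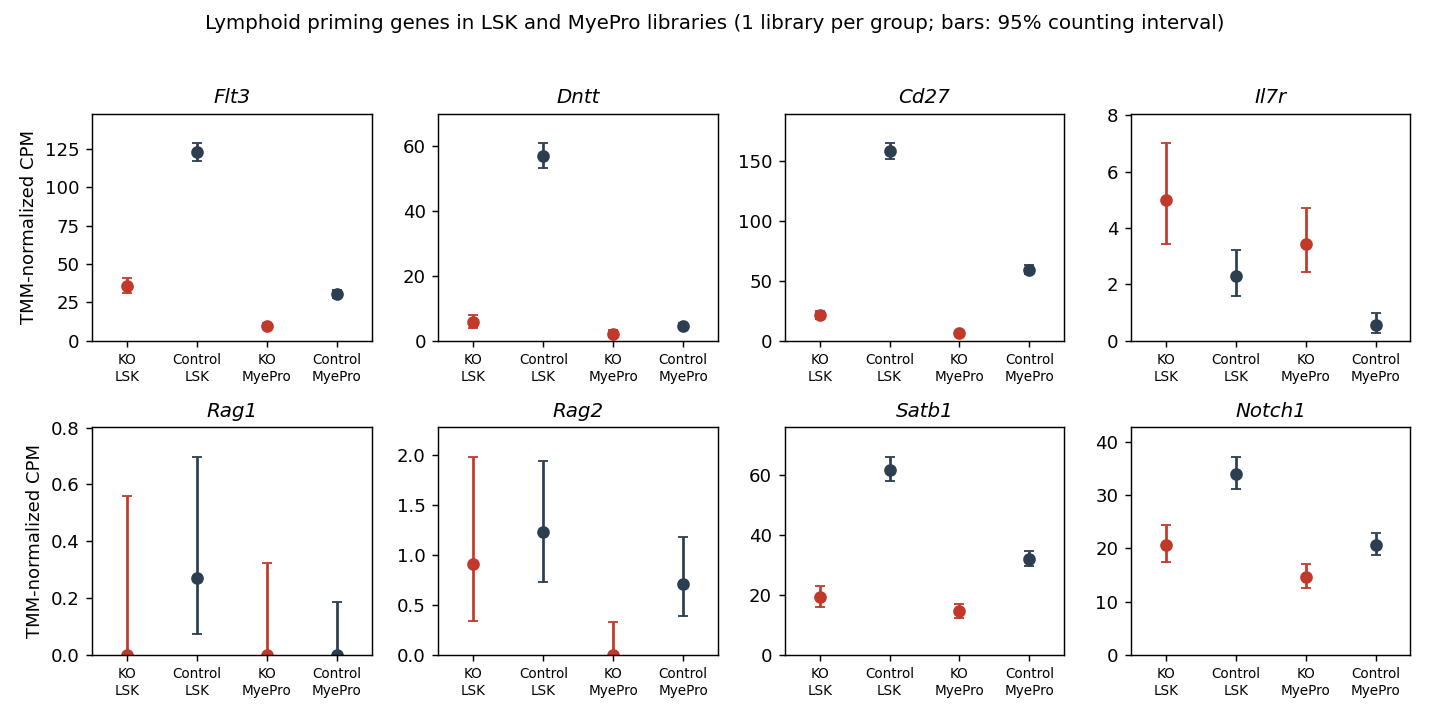
TMM-normalized CPM of the 8 lymphoid priming genes (vertical axis, 1 panel per gene, each with its own scale from 0) in KO LSK, control LSK, KO MyePro and control MyePro, with 1 library per group. Bars are exact Poisson 95% intervals, which cover counting error only. Flt3, Dntt, Cd27, Satb1 and Notch1 are highest in control LSK, whereas Il7r is higher in each KO library (4.99 and 3.43 CPM) than in its control (2.31 and 0.552 CPM).

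In MyePro cells most members were on the same side as in LSK. Flt3, Cd27 and Satb1 were each under 50% of the control MyePro level in KO MyePro, so that by the same rule 3 of the 8 members were lower and 0 higher, against 7.99% of 10244 genes lower and 11.3% higher. The median log2 ratio of the 4 members above the minimum was -1.41 against -0.08 over all genes, and each of the 4 was above 5 CPM in both libraries. These 3 were also the members at least 2-fold lower in both LSK and MyePro, as were 304 of the 9979 genes above the minimum in both populations (3.05%).

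Flt3 stood at 9.42 CPM in KO MyePro and 30.6 CPM in control MyePro (log2 ratio -1.68, interval -2.01 to -1.40), and Cd27 at 6.60 CPM in KO MyePro and 59.6 CPM in control MyePro (-3.15, interval -3.53 to -2.84). For these receptors the KO ratios of LSK and MyePro had overlapping counting intervals. Satb1 stood at 14.5 CPM in KO MyePro and 32.1 CPM in control MyePro (-1.13, interval -1.40 to -0.89), and its ratio came to -0.99 when all 4 libraries were thinned to the depth of KO LSK. Notch1 stood at 14.6 CPM in KO MyePro and 20.7 CPM in control MyePro (-0.50, interval -0.77 to -0.24).

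For Dntt the KO ratio was closer to 0 in MyePro than in LSK. It had 25 counts in KO MyePro and 90 in control MyePro, 2.20 and 4.52 CPM, under the expression minimum (log2 ratio -0.99, interval -1.74 to -0.38), and this interval does not meet that of LSK. The counting intervals of Satb1 in LSK and MyePro did not meet either. On the log2 scale the KO ratio of LSK minus that of MyePro was -2.29 for Dntt, -1.29 for Il7r, -0.55 for Satb1 and -0.21 for Notch1. It was -0.09 for Flt3, 0.26 for Cd27 and 2.11 for Rag2, which had 0 counts in KO MyePro. With 1 library per group this difference was not tested. Il7r was again higher in KO, with 39 counts in KO MyePro and 11 in control MyePro, 3.43 and 0.552 CPM (log2 ratio 2.35, interval 1.64 to 3.75). Rag1 had 0 counts in both MyePro libraries. Rag2 had 0 counts in KO MyePro and 14 in control MyePro (0.702 CPM). The interval of its log2 ratio had no lower limit and an upper limit of -0.92. Rag2 overlaps Iftap, an annotated gene with 406 and 438 counts in the same libraries, and the strand setting of the counting is not given in the sources used here.

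The second axis of the design, LSK against MyePro, sets the sorted populations against each other within a genotype. In control cells Flt3, Dntt and Cd27 were at least 2-fold higher in LSK, 3 of the 8 members, with 0 lower, against 7.21% of 10059 genes higher and 3.01% lower. Flt3 stood at 123 CPM in control LSK and 30.6 CPM in control MyePro (log2 ratio 2.00), Dntt at 57.0 CPM in control LSK and 4.52 CPM in control MyePro (3.61), and Cd27 at 159 CPM in control LSK and 59.6 CPM in control MyePro (1.41). Satb1 and Notch1 were higher in control LSK by log2 ratios of 0.95 (interval 0.80 to 1.10) and 0.71 (interval 0.53 to 0.91). Dntt, the gene of the end-adding enzyme, had the widest difference between the populations among the members above the minimum, 12.6-fold in control cells. It reached the mean of 5 CPM through control LSK alone, since control MyePro stood at 4.52 CPM.

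In KO cells the corresponding count was 2 of 8 higher in LSK, Flt3 and Cd27, and 0 lower, against 1.53% of 10360 genes higher and 3.15% lower. Flt3 stood at 35.8 CPM in KO LSK and 9.42 CPM in KO MyePro (log2 ratio 1.91, interval 1.59 to 2.27) and Cd27 at 21.3 CPM in KO LSK and 6.60 CPM in KO MyePro (1.67, interval 1.28 to 2.12). The ratio of Flt3 between the populations was nearly the same in both genotypes. Dntt stood at 5.75 CPM in KO LSK and 2.20 CPM in KO MyePro (1.33, interval 0.62 to 2.17), under the expression minimum, and its interval lies below the control value of 3.61. These comparisons share libraries with those between genotypes, so that they are side by side values and not independent ones. With library totals in place of TMM the split of all genes past 2-fold was 648 higher and 457 lower, against 513 and 556 with TMM, for KO over control LSK, and 234 and 246, against 159 and 326, for KO LSK over KO MyePro, while the counts of members did not change.

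Across the 4 libraries the members fell into different orders. Cd27 was highest in control LSK, then in control MyePro, KO LSK and KO MyePro, with no overlap of counting intervals between neighbours. Flt3 was highest in control LSK and lowest in KO MyePro, while KO LSK (interval 31.4 to 40.7 CPM) and control MyePro (28.2 to 33.1 CPM) overlapped. The same pair overlapped for Dntt (4.07 to 7.89 CPM in KO LSK and 3.63 to 5.55 CPM in control MyePro) and for Notch1, which stood at 20.7 CPM in each. For Satb1 the overlapping neighbours were KO LSK (16.0 to 22.8 CPM) and KO MyePro (12.4 to 16.9 CPM). Il7r had the order KO LSK (3.43 to 7.01 CPM), KO MyePro (2.44 to 4.69 CPM), control LSK (1.60 to 3.23 CPM) and control MyePro (0.275 to 0.987 CPM), in which the first 3 overlap with their neighbours and the last does not. Of the 5 members above the minimum in LSK, KO LSK thus lay below the interval of control MyePro for Cd27 and Satb1, and overlapped it for Flt3, Dntt and Notch1.

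In LT-HSC, where each genotype had 2 libraries, none of the members passed the test. By edgeR's quasi-likelihood test (two-sided, Benjamini-Hochberg adjusted p under 0.05 over 12844 genes), 0 of the 7 members that passed the expression filter were called, against 2 of all genes (0.0156%), and 0 were at an unadjusted p under 0.05, against 2.29% of all genes. With transplant as a block that second count was 1 member, and with 1 library left out it ran from 0 to 2. All 7 had an adjusted p of 0.999, and their unadjusted p ran from 0.112 (Cd27) to 0.759 (Flt3). DESeq2 and limma-voom called 0 members as well, as did the edgeR fit blocked by transplant. The labels give pools of mice as replicates, and the 2 pools of a genotype come from transplants 1 and 2. These p-values thus rest on a spread between pools that includes the difference between transplants. With transplant as a block the log2 fold change was -0.81 ± 0.272 (SE) for Cd27 and -0.30 ± 0.452 (SE) for Satb1. Without the block their SEs were 0.402 and 0.902. The genes called, Kdm5d and Eif2s3y, are Y-linked.

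Cd27 was the member for which the genotypes did not overlap: it stood at 40.7 and 19.4 CPM in the libraries labelled KO from transplants 1 and 2, and at 57.4 and 42.1 CPM in the controls. The values of KO thus lay under those of control in every pairing, as was so for 13.9% of all genes tested. The log2 fold change was -0.73 ± 0.402 (SE; edgeR adjusted p = 0.999), with -0.49 in transplant 1 and -1.12 in transplant 2.

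Flt3 stood at 5.60 and 9.55 CPM in the libraries labelled KO and at 8.81 and 8.11 CPM in the controls. The groups overlapped, and the log2 fold change was -0.16 ± 0.494 (SE; edgeR adjusted p = 0.999). Notch1 stood at 10.3 and 21.0 CPM in the libraries labelled KO and at 6.37 and 10.8 CPM in the controls. It was higher in the library labelled KO within each transplant (log2 0.69 and 0.96), although the groups overlapped across transplants and its log2 fold change of 0.87 ± 0.511 (SE) was not called by edgeR (adjusted p = 0.999). Satb1 stood at 3.17 and 13.4 CPM in the libraries labelled KO and at 3.56 and 18.1 CPM in the controls, a log2 fold change of -0.38 ± 0.902 (SE; edgeR adjusted p = 0.999). The transplants thus differed far more than the genotypes, and the within-transplant values were -0.17 and -0.43.

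Il7r stood at 0.706 and 2.73 CPM in the libraries labelled KO and at 1.64 and 9.10 CPM in the controls, a log2 fold change of -1.64 ± 1.03 (SE; edgeR adjusted p = 0.999). Rag1 stood at 0.161 and 1.34 CPM in the libraries labelled KO and at 0.173 and 6.33 CPM in the controls, a log2 fold change of -2.11 ± 1.62 (SE) that came to -1.30 with transplant as a block and to -0.80 with limma-voom, and the control mean rested on the library of transplant 2. Within transplants Il7r differed by -1.17 and -1.72 and Rag1 by -0.08 and -2.21 on the log2 scale, so that Rag1 hardly differed in transplant 1. Rag2 stood at 0.242 and 0.910 CPM in the libraries labelled KO and at 0.907 and 2.13 CPM in the controls, a log2 fold change of -1.39 ± 1.08 (SE). Dntt, with 11 and 64 counts in the libraries labelled KO and 9 and 27 counts in the controls (0.222 and 0.939 CPM in KO, 0.194 and 0.624 CPM in control), was below the expression filter of 1 CPM in 2 libraries and was not tested.

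**Figure D2:**
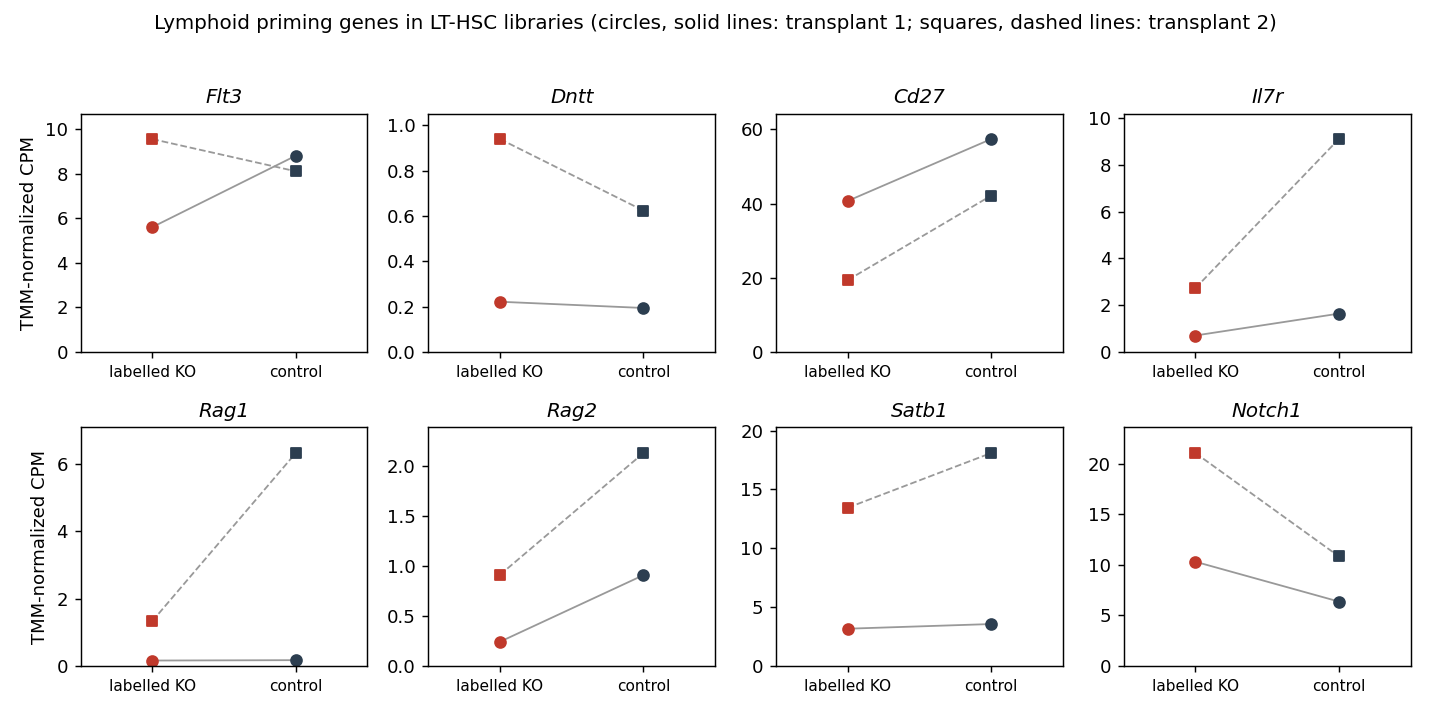
TMM-normalized CPM of the 8 lymphoid priming genes (vertical axis, each panel with its own scale from 0) in the 2 LT-HSC libraries labelled KO and the 2 control libraries, joined by transplant (circles and solid lines for transplant 1, squares and dashed lines for transplant 2). Dntt, Il7r, Rag1, Rag2, Satb1 and Notch1 are higher in transplant 2 than in transplant 1 in both genotypes, and Cd27 is lower.

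Most members also differed between the transplants. Dntt, Il7r, Rag1, Rag2, Satb1 and Notch1 were higher in transplant 2 than in transplant 1 both among the libraries labelled KO and among the controls, and Cd27 was lower in both. The share of all genes that did so was not counted. Neither these counts nor those of the lists below therefore set the members or the lists apart. Of 24 lymphoid transcription factors, 15 were higher in transplant 2 in both genotypes and 1 was lower. Of 27 Notch pathway genes, 6 were higher and 9 were lower. Of the 10 B cell markers, 7 were higher in transplant 2 in both genotypes, 1 (Vpreb1) was lower in both and 2 (Cd79b and Igll1) were neither, with a summed level of 8.71 and 30.8 CPM in the libraries labelled KO from transplants 1 and 2 and of 6.50 and 48.8 CPM in the controls. Of these, Cd79a stood at 1.17 and 6.03 CPM in the libraries labelled KO and at 0.259 and 15.4 CPM in the controls, and Ms4a1, which encodes CD20, had 0 counts in each library of transplant 1. The 8 NK cell markers summed to 11.8 and 41.6 CPM in the libraries labelled KO and to 13.5 and 53.4 CPM in the controls, and most of both transplant 2 sums was Nkg7 (31.5 CPM in the library labelled KO and 44.3 CPM in the control). The 9 neutrophil markers summed to 154 and 235 CPM in the libraries labelled KO and to 68.2 and 329 CPM in the controls. The 7 HSC markers had lower sums in transplant 2 (3 of the 7 lower in both genotypes, 0 higher in both), with 487 and 422 CPM in the libraries labelled KO and 484 and 277 CPM in the controls. The part of these markers in the levels of the members was not tested.

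**Figure D3:**
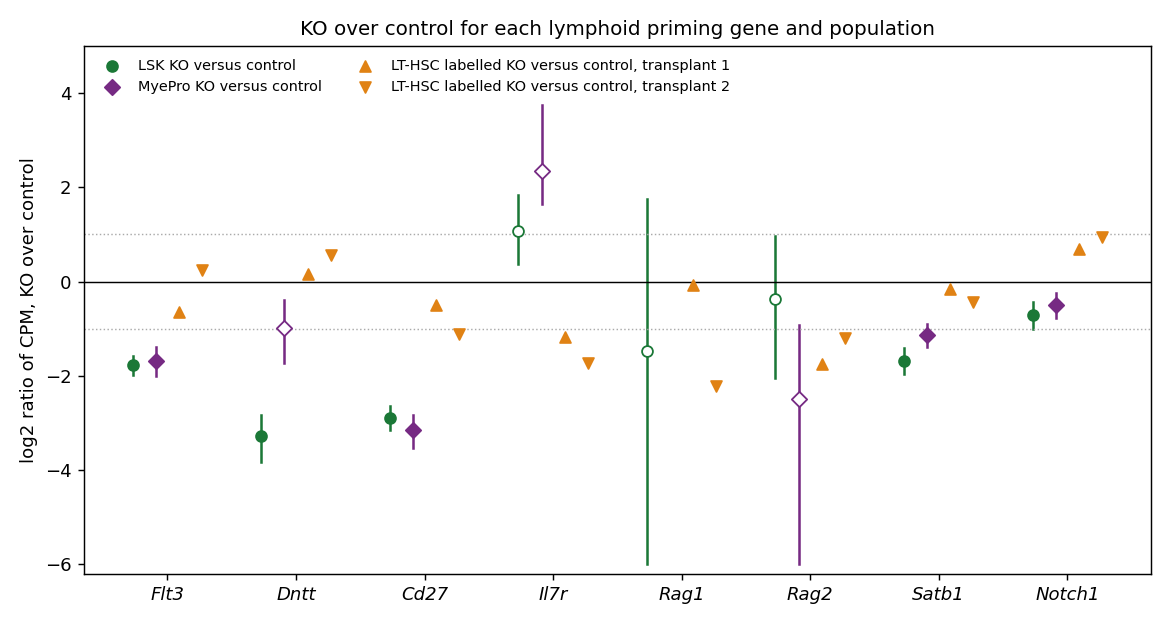
Log2 ratio of CPM, KO over control (vertical axis), for each of the 8 genes in LSK (circles), MyePro (diamonds) and each LT-HSC transplant (triangles). Lines are 95% counting intervals, and those that reach the lower edge have no lower limit; open symbols are below a mean of 5 CPM, dotted lines mark 2-fold, and Rag1 has no MyePro value because both counts are 0. Flt3, Cd27 and Satb1 lie below -1 in LSK and MyePro, while Il7r lies above 1 in both of these populations and below -1 in both LT-HSC transplants.

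Other genes of the same pathways were followed as 6 lists, described by counts and not tested as lists. The counts stand beside the shares of all genes past 2-fold, 4.98% higher and 5.39% lower in KO LSK and 11.3% higher and 7.99% lower in KO MyePro. A listed gene, like any of all genes, could reach the mean of 5 CPM through the library where it was high. Several genes named below did so in a comparison, among them Socs2, Tcf7, Ly86, Nrarp, Polm, Gata3, Klrb1c and Cd79b. Most partners of the receptors differed by less than 2-fold. Of 16 FLT3 and CD27 signalling genes, 13 were above the minimum in LSK, of which 1 passed 2-fold on the lower side of KO LSK and 0 on the higher (median log2 ratio -0.04): Cbl, a ubiquitin ligase that turns off receptor kinases, stood at 9.53 CPM in KO LSK and 22.6 CPM in control LSK. In MyePro 0 of 13 passed 2-fold on either side, and the adaptor Grb2 stood at 356 CPM in KO MyePro and 304 CPM in control MyePro.

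IL-7 receptor signalling genes past 2-fold were mostly on the higher side of KO MyePro, where more genes of all kinds were higher than lower. Of 14, 12 were above the minimum in LSK, of which 2 were at least 2-fold higher in KO LSK and 1 lower, and 11 in MyePro, of which 6 were higher in KO MyePro and 0 lower (median log2 ratios 0.39 and 1.14). Il2rg, the common gamma chain that pairs with IL-7 receptor alpha, stood at 149 CPM in KO LSK against 55.4 CPM in control LSK and at 90.04 CPM in KO MyePro against 25.3 CPM in control MyePro. The survival gene Bcl2 was the one on the lower side, at 49.4 CPM in KO LSK and 109 CPM in control LSK. The feedback inhibitor Socs2 stood at 10.4 CPM in KO MyePro and 0.652 CPM in control MyePro. Of the 8 NK cell markers, 3 were above the minimum, and all 3 were at least 2-fold higher in KO in each population. The list summed to 586 CPM in KO LSK and 205 CPM in control LSK, and to 652 CPM in KO MyePro and 209 CPM in control MyePro. The NK receptor gene Klrb1c, for example, stood at 27.8 CPM in KO LSK and 0.883 CPM in control LSK, a small part of the sums. The 10 T cell markers summed to 48.8 CPM in KO LSK and 50.6 CPM in control LSK, and to 53.2 CPM in KO MyePro and 17.4 CPM in control MyePro. The 9 markers of mature neutrophils summed to 172 CPM in KO LSK and 11.6 CPM in control LSK, and to 618 CPM in KO MyePro and 26.4 CPM in control MyePro. Of these 9, 3 were above the minimum in each KO comparison, and all 3 were at least 2-fold higher in KO. The part of cells that carry such markers in the values of Il7r, Il2rg and Socs2 was not tested.

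Lymphoid transcription factors were found on both sides. Of 24, 16 were above the minimum in LSK (2 higher in KO, 2 lower, median log2 ratio -0.17) and 15 in MyePro (4 higher, 4 lower, median 0.04). Bcl11a, required for B and lymphoid progenitors, stood at 49.3 CPM in KO LSK against 156 CPM in control LSK and at 50.4 CPM in KO MyePro against 175 CPM in control MyePro. Irf8, a factor of monocyte, dendritic and B lineages, stood at 45.5 CPM in KO LSK against 103 CPM in control LSK and at 48.4 CPM in KO MyePro against 218 CPM in control MyePro. Id2, the inhibitor of E proteins that favours innate lymphoid cells, was on the other side, at 74.4 CPM in KO LSK against 18.6 CPM in control LSK and at 91.5 CPM in KO MyePro against 6.87 CPM in control MyePro. Tcf7, a T and innate lymphoid factor, stood at 7.41 CPM in KO LSK against 3.06 CPM in control LSK. The B cell factor Ebf1 had 0 counts in all 4 LSK and MyePro libraries.

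Among 13 further surface and signature genes of lymphoid-primed progenitors, 8 were above the minimum in LSK, with 2 higher and 1 lower in KO LSK, and 8 in MyePro, with 3 higher and 1 lower. Ly86 (MD-1, a partner of a Toll-like receptor relative on B cells) stood at 2.72 CPM in KO LSK against 10.3 CPM in control LSK and at 9.95 CPM in KO MyePro against 43.9 CPM in control MyePro. Tespa1, a signalling protein of thymocytes, stood at 101 CPM in KO LSK against 35.8 CPM in control LSK. Genes of this list past 2-fold therefore lay on both sides. By the same rule 0 of the 8 members were higher in KO, since Il7r was under the expression minimum in both populations.

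In the Notch pathway, 19 of 27 genes were above the minimum in LSK, with 1 higher and 3 lower in KO LSK (median log2 ratio 0.24), and 18 in MyePro, with 1 higher and 2 lower. The receptor Notch2 stood at 87.5 CPM in KO LSK against 180 CPM in control LSK and at 57.6 CPM in KO MyePro against 131 CPM in control MyePro, and the Notch target Nrarp at 2.12 CPM in KO LSK against 10.8 CPM in control LSK. Dtx4, a Deltex family gene, stood at 72.0 CPM in KO LSK and 22.97 CPM in control LSK. Of 12 partners of V(D)J recombination, 10 were above the minimum in LSK and 0 passed 2-fold. In MyePro 3 of 12 passed 2-fold on the lower side of KO, among them Polm, a DNA polymerase related to terminal transferase, at 2.38 CPM in KO MyePro and 10.3 CPM in control MyePro.

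Between the populations, control LSK stood at least 2-fold above control MyePro for 5 of 15 lymphoid transcription factors and below it for 1, and for 4 of 10 IL-7 receptor signalling genes and below it for 0. Over all genes the shares were 7.21% higher in control LSK and 3.01% lower. Gata3, a factor of T and innate lymphoid cells, stood at 14.8 CPM in control LSK and 1.71 CPM in control MyePro, and at 12.9 CPM in KO LSK and 3.52 CPM in KO MyePro. Sox4, needed for early lymphoid cells, stood at 61.2 CPM in control LSK and 19.01 CPM in control MyePro, and at 81.8 CPM in KO LSK and 22.1 CPM in KO MyePro. Jak3, the kinase that binds the common gamma chain, stood at 138 CPM in control LSK and 47.3 CPM in control MyePro. In KO cells 2 of 16 of these transcription factors, Gata3 and Sox4, and 0 of 12 of the signalling genes were at least 2-fold higher in LSK. Over all genes 1.53% were higher in KO LSK and 3.15% lower. Gata3 and Sox4 thus had the side of Flt3 and Cd27 between populations without their low level in KO LSK.

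In LT-HSC, 0 genes of these 6 lists passed the edgeR threshold, and their median log2 fold changes ran from -0.36 (V(D)J recombination partners, 9 of 11 negative) to 0.05 (IL-7 receptor signalling), against 0.00 over all genes. At an unadjusted p under 0.05 the lists held 2 of 89 tested genes (2.25%), near the 2.29% of all genes, so the count does not set the lists apart. Ly86 stood at 3.67 and 5.42 CPM in the LT-HSC libraries labelled KO and at 0.885 and 1.20 CPM in the controls, and Ccr7, a chemokine receptor gene, stood at 0.161 and 0.235 CPM in the libraries labelled KO and at 1.49 and 1.36 CPM in the controls (edgeR adjusted p = 0.999 for each).

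Mature B and T cells are other places where members of the list are expressed, so their markers were followed in LSK and MyePro as well. The 10 B cell markers summed to 5.44 CPM in KO LSK and 26.0 CPM in control LSK, and to 10.7 CPM in KO MyePro and 21.7 CPM in control MyePro. Most of the control level was Cd79b, at 1.51 CPM in KO LSK against 24.6 CPM in control LSK and at 2.55 CPM in KO MyePro against 19.5 CPM in control MyePro. In both KO comparisons it was the only B cell marker above the minimum, and Ms4a1 and Ebf1 had 0 counts in all 4 libraries. The 7 HSC markers summed to 104 CPM in KO LSK and 378 CPM in control LSK, and of the 6 above the minimum 4 passed 2-fold on the lower side of KO LSK, among them Vwf (9.98 CPM in KO LSK and 92.9 CPM in control LSK) and Hlf (45.2 CPM in KO LSK and 194 CPM in control LSK). In KO MyePro the HSC markers summed to 61.3 CPM, against 45.7 CPM in control MyePro. Erythroid markers summed to 36.3 CPM in KO LSK and 735 CPM in control LSK, and to 337 CPM in KO MyePro and 3269 CPM in control MyePro. Megakaryocyte markers summed to 698 CPM in KO LSK and 592 CPM in control LSK, and to 1461 CPM in KO MyePro and 151 CPM in control MyePro, so that both populations differed between genotypes in lineages outside the lymphoid one. The part of cell composition in the values of the members was not tested.

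Genes with the profile nearest to 3 of the members over the 4 LSK and MyePro libraries were found by the Euclidean distance between centred log2 CPM, among 9131 other genes averaging 10 CPM or more. For Dntt the nearest were the MHC class II genes H2-Aa (distance 0.45) and H2-Eb1 (0.68) and the invariant chain gene Cd74 (0.68). H2-Aa stood at 21.9 CPM in KO LSK and 184 CPM in control LSK, and at 6.25 CPM in KO MyePro and 18.96 CPM in control MyePro. Cd74 stood at 43.7 CPM in KO LSK and 384 CPM in control LSK, and at 10.2 CPM in KO MyePro and 37.9 CPM in control MyePro. For Cd27 the nearest was another MHC class II gene, H2-Ab1 (0.69), followed by Rhobtb3 (0.74) and Ccdc8 (0.82). H2-Ab1 stood at 21.6 CPM in KO LSK and 276 CPM in control LSK, and at 9.24 CPM in KO MyePro and 58.0 CPM in control MyePro. For Flt3 the nearest were the melanocortin receptor gene Mc5r (0.10), the arginine deiminase gene Padi4 (0.27) and Mdga1 (0.43). With 4 libraries, such likeness is a description of these libraries alone.

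**Figure D4:**
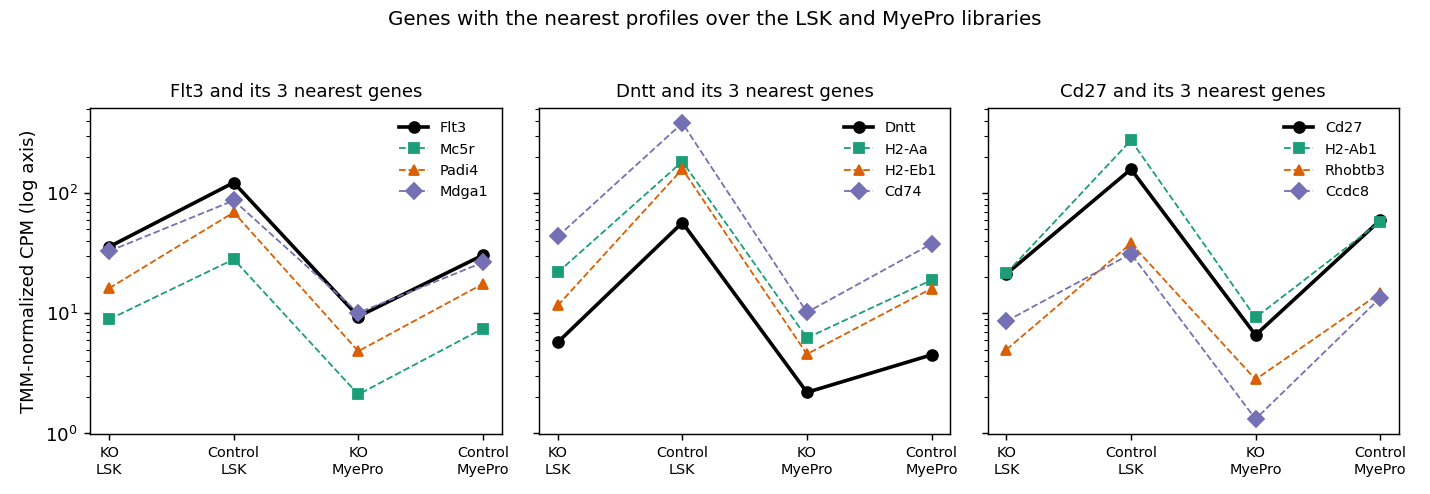
TMM-normalized CPM (vertical log axis) of Flt3, Dntt and Cd27 (black) and of the 3 genes nearest to each (coloured) in KO LSK, control LSK, KO MyePro and control MyePro, with 1 library per group; lines join the values of a gene and stand for no order. Each of the 12 genes is highest in control LSK and lowest in KO MyePro, and for Dntt the 3 neighbours are H2-Aa, H2-Eb1 and Cd74.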

How the data were processed

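RNA counts of 8 libraries were used, and the 6 ChIP-seq samples were not analysed here. Per the labels' protocols, RNA was polyA-selected in 2 rounds, and for LT-HSC alone it was first amplified (Ovation V2). The deposited files hold raw counts per gene. TopHat2, HTSeq 0.6.0, Picard 1.126, CASAVA 1.8.4, DESeq 3.0 and build mm10 are named in the submitters' processing notes. The annotation is, like the strand setting, not given in the sources used here. Overlapping genes could therefore share reads with Flt3, Cd27, Rag2 and Notch1, and the annotated lncRNA E130112N10Rik, which spans Cd27, was not analysed here.

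Symbols were paired with 37607 of 39179 Ensembl IDs (96.0%). Entries without a gene name stayed out: reads without a feature made up 2.40% to 6.25% of the file totals in LSK and MyePro and 16.7% to 26.0% in LT-HSC, reads aligned to several places 23.9% to 37.9%, and an entry named DPY30-SPKIG and the ERCC spike-ins were also left out. Mitochondrial ribosomal RNA took 45.1% to 62.4% of LT-HSC gene counts.

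The LT-HSC genotypes were tested in edgeR 4.0.16 (R 4.3.3) with TMM scaling, a filter of at least 1 CPM in 2 libraries and the quasi-likelihood test, without a block. Per the labels a number marks a shared transplant, which pairs the libraries, and their deviations correlated at 0.285 across genes. LSK and MyePro were given as log2 ratios of CPM with a prior count of 2 and exact binomial 95% intervals, without p-values, since each group had 1 library. Intervals and floors cover counting error only. Alternatives were DESeq2 1.42.0, limma-voom 3.58.1, other scalings, filters and prior counts, thinning and leaving out each LT-HSC library. Genes named beside the members were, per list and comparison, up to 4 with the widest ratio past 2-fold, or else the 2 highest. Ly86 and Ccr7 in LT-HSC, Klrb1c, Nkg7, Vpreb1, Igll1, Vwf, Hlf, Cd79b, Cd79a, Ms4a1, Ebf1, Kdm5d, Eif2s3y and Xist were chosen after their values were seen. Of the genes nearest in profile 3 per member are named. The members, lists and tests were chosen with earlier results of these data known.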

Additional observations from a re-analysis of the deposited data

Results flagged for a closer look

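For 3 members the KO values of the progenitor populations and of both LT-HSC transplants lay on opposite sides of 0, and the difference between populations was not tested. Il7r was higher in KO LSK (log2 ratio 1.06, 33 counts in KO and 34 in control) and in KO MyePro (2.35, 39 counts in KO and 11 in control), and lower in the LT-HSC libraries labelled KO (-1.17 in transplant 1 and -1.72 in transplant 2). With thinned counts its LSK ratio was 0.76. Notch1 had log2 ratios of -0.71 in LSK and -0.50 in MyePro, below 0, and was higher in the LT-HSC libraries labelled KO (0.69 in transplant 1 and 0.96 in transplant 2). Dntt was far lower in KO LSK (-3.28), lower in KO MyePro (-0.99) and slightly higher in the LT-HSC libraries labelled KO (0.16 and 0.56), where it had 11 and 64 counts in the libraries labelled KO and 9 and 27 counts in the controls. LT-HSC libraries were amplified and scaled apart from the others.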

How the results depend on the processing

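The counts of members past 2-fold on the side given above in the 4 comparisons of LSK and MyePro kept within 1.5 times their value under every alternative run (library totals, RLE size factors, a prior count of 0.5, a mean of at least 1 or 10 CPM, thinned counts, and ribosomal RNA left out). Thinned counts left 2 members lower in KO MyePro in place of 3. For control LSK over control MyePro they gave log2 ratios of 1.86 for Flt3, 3.25 for Dntt and 1.30 for Cd27. At full depth these were 2.00, 3.61 and 1.41. Lowering the expression minimum to 1 CPM added 1 member, Il7r, on the higher side in KO LSK and in KO MyePro, where the count was 0. It also took the members higher in LSK than in MyePro from 3 to 4 in control cells (Il7r) and from 2 to 3 in KO cells (Dntt). It moved the counts over all genes to 1130 higher and 946 lower in KO LSK (513 and 556 at 5 CPM), to 2222 higher in KO MyePro (1160), to 1371 higher in control LSK over control MyePro (725), and to 472 higher and 855 lower in KO LSK over KO MyePro (159 and 326). At 10 CPM, 329 were higher in KO LSK, and 94 higher and 203 lower in KO LSK over KO MyePro. With library totals the all-gene median log2 ratio was 0.09 in LSK (-0.04 with TMM), 0.13 for KO LSK over KO MyePro (0.00) and -0.35 in LT-HSC (0.00).

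In LT-HSC the members called were 0 under every alternative, including each library left out. The count over all genes was 2, and 4 with library totals, 4 without a filter, 14 with DESeq2, 1 with limma-voom, 4 with transplant as a replicate block and 0 without mitochondrial ribosomal RNA; it ran from 0 to 5 with 1 library left out. The block called no member, with 1 at an unadjusted p under 0.05 in place of 0. Signs turned for members that were not called: Flt3 stood at 0.18 and Satb1 at 0.31 without the library labelled KO from transplant 1, and Il7r at 0.08 and Satb1 at 1.24 without the control of transplant 2. Rag1 fell below the filter without either library of transplant 2. Depth limits Rag1, Rag2, Il7r and, in MyePro and LT-HSC, Dntt.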
